A study of Mus musculus with 8 samples.

Results

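The integrins and adhesion ligands examined here are 10 genes, Itgal, Itgb2, Icam1, Icam2, Itga4, Itgb1, Itgb7, Cd44, Fermt3 and Tln1. They were taken by gene symbol from 24259 symbols counted in B cells on their way to a germinal center response. The question of the study was whether loss of 1 Bcl6 allele in helper T cells weakens the CD40L signal that B cells receive, and the libraries came from NP-binding B220+ B cells with low IgD, sorted from draining lymph nodes on day 3. All recipients were CD45.1 Sap-/- mice, whose own T cells do not sustain germinal centers, and were immunized under the skin with NP-OVA and LPS in alum after transfer of OT-II T cells. The OT-II cells were CD4-Cre, Bcl6 fl/+ in the HET group and CD4-Cre, with intact Bcl6, in the WT group. CD4-Cre acts in T cells, so the sequenced B cells of both groups carried no engineered Bcl6 deletion and no targeted gene could be used to check the labels. The ages of the animals were not given in the sources used here.

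Each group held 4 libraries of about 200 cells, sorted repeatedly from 1 pool of cells of several recipients. Differences among the 4 therefore come from sorting and library preparation, p-values measure only that spread, and the group and its pool cannot be told apart. Total counts ranged from 6652386 to 12559189 per library, so that 3 counts stood for 0.241 to 0.455 CPM (the read count of a gene scaled to the size of its library). The 10 genes were well above this floor, with 253 to 3387 counts per gene and library, and all 10 were among the 12744 genes tested. The libraries carried the markers of B cells, the 8 of which summed to between 9921 and 12550 CPM. The 12 T cell markers summed to between 95.5 and 406 CPM. Among them Cd4 lay between 0 and 0.8 CPM, while Cd8a had 7.19 to 57.1 CPM and Cd3d 2.65 to 46.4 CPM. The most abundant marker was Cd79a at a mean of 3714 CPM for B cells and Trbc2 at 40.3 CPM for T cells. Myeloid markers summed to 17.4 to 433 CPM, and the 5 stromal and endothelial markers with a count row to 0 to 15.9 CPM. In these bulk samples, fewer cells of a type and less RNA per cell cannot be told apart.

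Integrins are adhesion receptors built of 1 alpha and 1 beta chain. The chains of Itgal (CD11a) and Itgb2 (CD18) form LFA-1, which binds the immunoglobulin-family ligands ICAM-1 and ICAM-2 on other cells, and the chain of Itga4 pairs with that of Itgb1 to form VLA-4, the receptor for VCAM-1 and fibronectin, or with that of Itgb7 to form the gut-homing receptor for MAdCAM-1. Kindlin-3 (Fermt3) and talin-1 (Tln1) bind the tails of beta chains and switch the receptors to their binding state, and CD44 is the receptor for hyaluronan. On B cells, ICAM-1 and ICAM-2 are ligands for LFA-1 of helper T cells and help to hold the contact through which T cells deliver CD40L, while LFA-1 and VLA-4 of the B cell serve adhesion to other cells of the follicle.

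ICAM-1 is a classical target of NF-kappaB, the transcription factor downstream of CD40, and its promoter is shown because Icam1 is the member most closely tied to CD40 signaling. The window is that of RefSeq on GRCm38.p6, chr9:21015690-21015989 on the plus strand, from 250 bases before to 50 bases after the RefSeq start of the gene. Capitals mark a kappaB motif and the letters TATAAA, and the rest is in lower case.
Icam1 promoter: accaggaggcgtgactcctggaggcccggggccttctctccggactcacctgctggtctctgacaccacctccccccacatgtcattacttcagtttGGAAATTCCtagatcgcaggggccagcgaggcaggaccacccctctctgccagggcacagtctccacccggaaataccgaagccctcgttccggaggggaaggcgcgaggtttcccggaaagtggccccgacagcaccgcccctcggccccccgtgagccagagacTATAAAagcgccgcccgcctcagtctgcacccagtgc

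The motif GGAAATTCC began 153 bases before the RefSeq start and 198 bases before the start in the GENCODE M21 annotation. The TATAAA motif began 32 bases before the GENCODE start, but after the RefSeq start that sets the window. On either strand, the first motif was in 104 of 32851 RefSeq windows of this length (0.317%) and the second in 13.6%, and the motifs do not overlap. Windows were matched for 7 of the 10 members, and none for Itgal, Itgb2 and Icam2, and among those 7 only the window of Icam1 held either set of letters. These matches describe the sequence and do not show that a factor was bound.

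To set the 10 genes beside one another, counts were divided by the exonic length of each gene and rescaled to the total that TPM have in each library, which is called exonic TPM below. On that scale the 2 LFA-1 ligands differed in level. Icam2 was the highest of the 10, with a mean of 193 exonic TPM and a range of 165 to 235 over the 8 libraries, above every value of the other 9 genes. Icam1 averaged 62.3 exonic TPM (49.7 to 76.2), and within a library Icam2 was 3.15 times as high as Icam1 on average (2.45 to 4.15). Icam2 is known as the constitutive ligand and Icam1 as the inducible one.

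Among the activators, Fermt3 averaged 118 exonic TPM (93.9 to 140) and Tln1 46.0 (38.9 to 57.0). The means of the beta chains Itgb7, at 99.3 exonic TPM (72.4 to 131), and Itgb2, at 89.1 (73.7 to 108), lay between them. Cd44 and Itgb1 both averaged 30.5 exonic TPM, with ranges of 23.5 to 37.8 and 20.4 to 44.1, followed by the alpha chains Itgal at 28.7 (17.7 to 43.7) and Itga4 at 13.9 (11.4 to 20.4). The ranges over libraries overlapped between every pair of neighbours in this order except Icam2 and Fermt3, and Tln1 and Cd44. Thus the ranges of Fermt3, Itgb7 and Itgb2 overlapped, as did those of Cd44, Itgb1 and Itgal. The order of these genes within each library was not compared.

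Both alpha chains averaged lower in exonic TPM than their beta partners. Itgb2 was 3.38 times as high as Itgal (2.10 to 6.11 over libraries), and Itgb7 was 7.44 times as high as Itga4 (4.31 to 11.3). Of the partners of the Itga4 chain, Itgb7 exceeded Itgb1 in every library, with a mean ratio of 3.36 (2.11 to 4.86) in exonic TPM. These are ratios of RNA and give no amounts of the paired proteins on the cell surface.

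**Figure D1:**
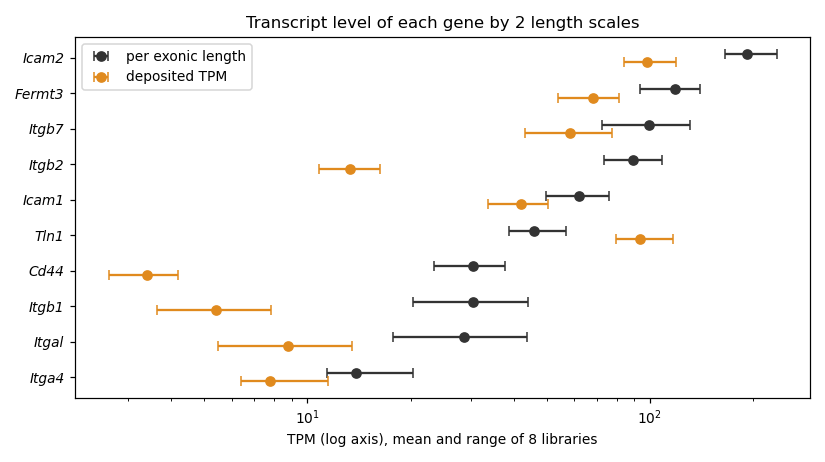
Mean and range over the 8 libraries of the level of each gene, on a log axis, as exonic TPM (black) and as the deposited TPM (orange). Icam2 is highest on both scales, while Tln1 is placed second by the deposited TPM and sixth per exonic length, and Cd44 is lowest on the deposited scale only.

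The order depended on the length used. The deposited TPM divide each gene by 1 fixed length, which across 10380 genes followed the genomic span of the gene, introns included (Pearson r = 0.968 on the log2 scale), more closely than its exonic length (r = 0.693). By the deposited values Cd44, with 6776 exonic bases spread over a long gene, was lowest at 3.40 TPM, and Tln1, with 9801 exonic bases in a compact gene, was second at 93.5 TPM. The ratio of Itgb7 to Itgb1 was 11.2 by the deposited TPM. Itga4, lower than its partner Itgb1 in exonic TPM, was above it by the deposited TPM, at 7.75 against 5.41. When 1 gene is compared between groups its own length cancels, but the rescaling of TPM in each library depends on the lengths of all genes. The edgeR comparison below used counts.

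The effect of the T cell genotype on the B cells was addressed by comparing HET with WT. None of the 10 genes differed by edgeR's quasi-likelihood test with Benjamini-Hochberg adjustment over all 12744 genes, or at an unadjusted p under 0.05, and the groups overlapped for all 10. DESeq2 called none either. Across all genes tested, 3 passed the adjusted threshold (0.0235%, all lower in HET), 920 had an unadjusted p under 0.05 (7.22%) and 587 had no overlap between the groups (4.61%). Of the members, 4 were higher (40%, against 49.9% of all genes) and 6 lower in HET. Their median log2 fold change was -0.06 against -0.00 over all genes. Log2 fold changes are given below as HET against WT, with the standard error and the 95% interval of the fit.

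Icam1, at chromosome 9 (21015985 to 21028817, GRCm38, plus strand), had 111, 98.8, 140.2 and 152 CPM in HET and 114, 129, 120 and 131 CPM in WT. The HET libraries held both the lowest and the highest values, and all WT values lay between them. HET averaged 125 ± 24.9 CPM and WT 124 ± 7.92 CPM (SD, n = 4 each), and the log2 fold change was 0.02 (SE 0.14, interval -0.28 to 0.33, edgeR adjusted p = 0.981). Icam1 shares 511 exonic bases with Gm47079 on the other strand. The strand setting of the counting was not stated, so reads of the 2 genes cannot be told apart there.

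Icam2, at chromosome 11 (106377656 to 106388075, minus strand), had 159, 144, 161 and 163 CPM in HET and 207, 191, 148 and 177 CPM in WT. WT 3 fell within the HET range and the other 3 WT libraries lay above every HET library. The difference was the nearest to the threshold among the members, with means of 157 ± 8.75 and 181 ± 25.1 CPM (SD, n = 4 each) and a log2 fold change of -0.21 (SE 0.12, interval -0.46 to 0.05, edgeR unadjusted p = 0.101, adjusted p = 0.769). Without WT 3 it was -0.28, with an unadjusted p of 0.0232 by edgeR and an adjusted p still above 0.05. Some alternative fits with all libraries also gave Icam2 an unadjusted p under 0.05, as listed in the last section.

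The chains of LFA-1 were each variable in 1 group or both. Itgal, at chromosome 7 (127296260 to 127335138, plus strand), had 108, 66.3, 53.2 and 91.9 CPM in HET and 105, 69.7, 125 and 72.3 CPM in WT, so that both groups split into high and low libraries and interleaved. Its means were 79.9 ± 24.8 and 93.0 ± 26.8 CPM (SD, n = 4 each), and the log2 fold change of -0.22 had the widest interval of the members (SE 0.23, -0.72 to 0.29, edgeR adjusted p = 0.891). Itgb2, at chromosome 10 (77530252 to 77565708, plus strand), had 139, 113, 151 and 103 CPM in HET and 131, 125, 122 and 116 CPM in WT. All WT values again lay inside the HET range. The log2 fold change of Itgb2 was 0.03 (SE 0.13, interval -0.25 to 0.32, edgeR adjusted p = 0.977), and the coefficient of variation was 17.6% in HET and 5.24% in WT.

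For the chains of VLA-4 and its Itgb7-containing relative, values also overlapped. Itga4, at chromosome 2 (79255426 to 79333123, plus strand), had 110.1, 86.0, 72.7 and 80.4 CPM in HET and 85.0, 73.9, 124 and 78.8 CPM in WT. HET 1 and WT 3 stood above the other 6 libraries, and the log2 fold change was -0.05 (SE 0.18, interval -0.44 to 0.34, edgeR adjusted p = 0.977). Itga4 shares 1124 exonic bases with Cerkl on the other strand, where reads cannot be assigned without the strand setting.

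Itgb1, at chromosome 8 (128685654 to 128733200, plus strand), had 67.6, 82.0, 37.9 and 61.0 CPM in HET and 61.5, 50.2, 44.8 and 53.4 CPM in WT. HET 3 was the lowest of the 8 libraries and HET 2 the highest. The log2 fold change was 0.24 (SE 0.21, interval -0.21 to 0.70, edgeR adjusted p = 0.859), the highest of the members, and without HET 3 it was 0.42 (unadjusted p = 0.0328 and adjusted p = 0.769 by edgeR). Itgb7, at chromosome 15 (102215995 to 102231944, minus strand), had 141, 117, 91.5 and 133 CPM in HET and 139, 166, 106 and 118 CPM in WT, with a log2 fold change of -0.13 (SE 0.16, interval -0.48 to 0.22, edgeR adjusted p = 0.909). The extremes of Itgb7 were HET 3, the lowest, and WT 2, the highest.

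Cd44, at chromosome 2 (102811141 to 102901665, minus strand), is a marker of activated lymphocytes as well as an adhesion receptor. It had 125, 100.3, 85.8 and 95.2 CPM in HET and 94.1, 89.8, 97.4 and 72.9 CPM in WT. HET 1 and HET 2 lay above every WT library, WT 4 lay below every HET library, and the other 5 interleaved. The log2 fold change was 0.20 (SE 0.15, interval -0.11 to 0.52, edgeR adjusted p = 0.820).

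The activators were the members with the highest CPM. Fermt3, at chromosome 19 (6998958 to 7019469, minus strand), had 266, 326, 296 and 325 CPM in HET and 322, 303, 354 and 315 CPM in WT, with a log2 fold change of -0.09 (SE 0.10, interval -0.30 to 0.11, edgeR adjusted p = 0.889). Tln1, at chromosome 4 (43531519 to 43562691, minus strand), had 228, 179, 194 and 204 CPM in HET and 242, 174, 244 and 189 CPM in WT, with a log2 fold change of -0.08 (SE 0.13, interval -0.35 to 0.20, edgeR adjusted p = 0.941). Fermt3 was lowest in HET 1 and highest in WT 3, and Tln1 lowest in WT 2 and highest in WT 3. Their overlaps with genes on the other strand were short against their exonic lengths, 89 of 5784 bases shared with Trpt1 for Fermt3 and 360 of 9801 bases shared with Creb3 for Tln1.

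**Figure D2:**
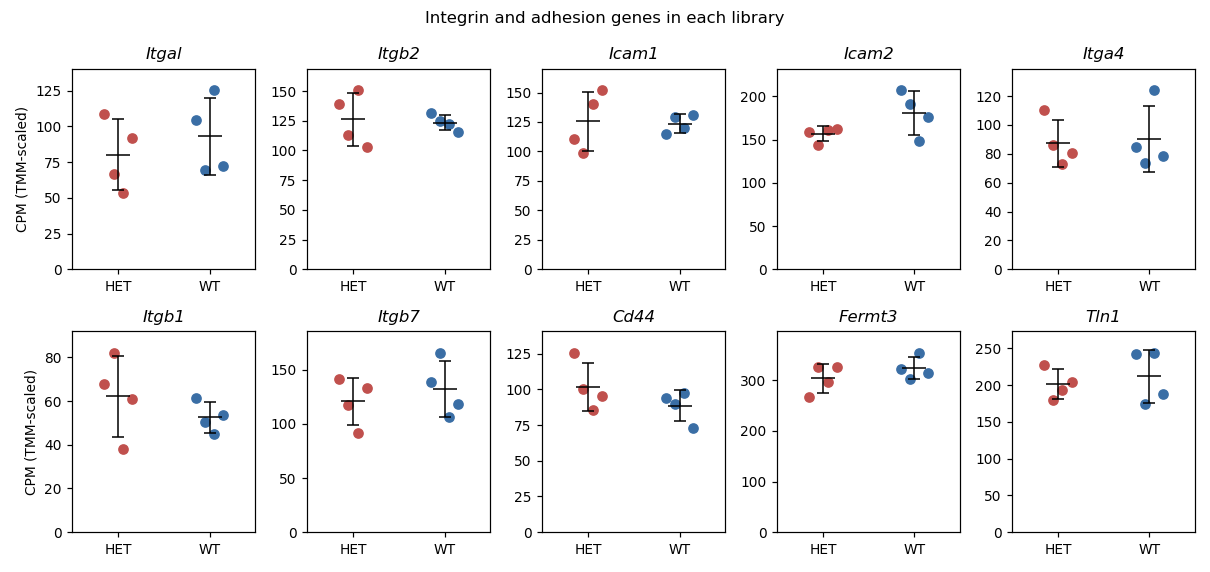
CPM of each gene in the 4 HET (red) and 4 WT (blue) libraries, on axes that start at 0, with the mean and SD of each group in black. The groups overlap in all 10 panels, and the HET points of Icam1 and Itgb2 spread around the tighter WT points.

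The intervals limit how large a difference could have gone unseen in these pools. All 10 intervals excluded a 2-fold difference in either direction, the lowest bound being -0.72 for Itgal and the highest 0.70 for Itgb1. For 8 of the 10 genes, all but Itgal and Itgb1, the interval also excluded a 1.5-fold difference. The median coefficient of variation over the members was 17.9% in HET and 13.6% in WT.

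**Figure D3:**
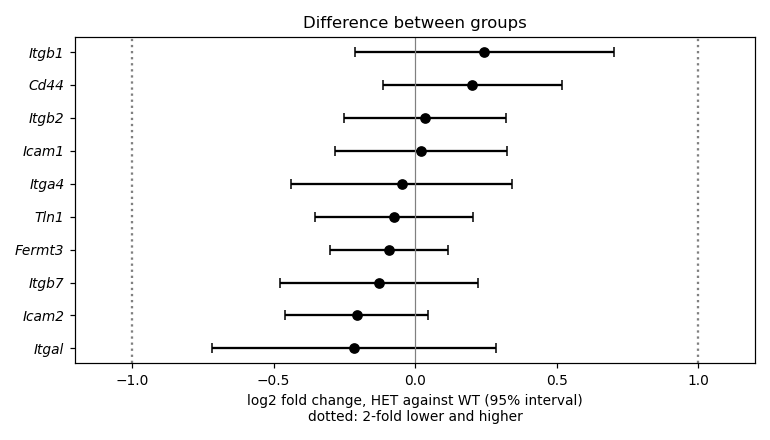
Log2 fold change of each gene, HET against WT, with its 95% interval, and dotted lines at 2-fold lower and higher. All 10 intervals include 0 and stay inside the dotted lines, from -0.72 for Itgal to 0.70 for Itgb1.

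The balance between related genes, namely beta chains, alpha chains or ICAM ligands, was compared within libraries by the deposited TPM. In such ratios the length of each gene cancels between groups. No ratio of an alpha chain to its beta partner was tested between groups. The log2 ratio of Itgb7 to Itgb1 averaged 3.29 ± 0.33 for HET and 3.61 ± 0.27 for WT (SD, n = 4 each), a difference of -0.33 (two-sided exact permutation p = 0.200). The log2 ratio of Itga4 to Itgal was -0.06 ± 0.30 in HET and -0.25 ± 0.19 in WT (difference 0.19, n = 4 each, exact permutation p = 0.286). The log2 ratio of Icam1 to Icam2 was -1.12 ± 0.23 in HET and -1.32 ± 0.24 in WT (difference 0.20, n = 4 each, exact permutation p = 0.229). None of the 3 differences passed, with p = 0.286 for each after adjustment over the 3 exact permutation tests, whose smallest possible p is 0.0286.

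Several members varied more between libraries of one group than between the groups. Itgal had a highest value 2.36 times its lowest and Itgb1 2.16 times, while Fermt3 varied by 1.33 times. WT 3 was the highest of the 8 libraries for Itgal, Itga4, Fermt3 and Tln1, and the lowest WT library for Icam2, Itgb1 and Itgb7. HET 3 was the lowest of the 8 for Itgal, Itga4, Itgb1 and Itgb7 but the highest HET library for Itgb2. HET 1 was the highest HET library for Itgal, Itga4, Itgb7, Cd44 and Tln1 and the lowest of all 8 for Fermt3. Itgal and its partner Itgb2 were at opposite extremes in HET 3, where Itgb2 was highest and Itgal lowest.

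Part of this pattern went with the exonic length of the genes and part did not. Among genes with a mean log2 CPM above 5, the median log2 deviation from the mean of the 8 libraries was 0.11 in WT 3 and -0.09 in HET 3 for 1521 genes over 6 kb, and -0.14 and 0.08 for 789 genes under 2 kb. Itga4 (13978 exonic bases), Tln1 and Itgal (6569 exonic bases) were high in WT 3, with deviations of 0.50, 0.25 and 0.59. The short Icam2 (1904 exonic bases) was low there at -0.18, and the long Cd44 (6776 exonic bases) deviated by only 0.05. In HET 3, Icam2 deviated by -0.06, Itgb1 (4081 exonic bases) by -0.55 and Itgb7 (2770 exonic bases) by -0.44. The medians there were 0.003 for genes of 4 to 6 kb and 0.06 for genes of 2 to 4 kb. In HET 1, where Itgal deviated by 0.38 and Itga4 by 0.33, the medians of long and short genes were -0.02 and 0.02. With the length trend as an offset in the edgeR fit, added after seeing the data, the log2 fold changes were 0.07 for Itga4, 0.01 for Tln1, -0.17 for Itgal and -0.26 for Icam2, and none was called. The part of transcript length in these values was not tested further. T cells also express members, among them Itgal, Itga4 and Cd44. The summed T cell markers were 256, 406, 286 and 187 CPM in HET and 236, 339, 95.5 and 125 CPM in WT, highest in HET 2 and lowest in WT 3, and their part in these values was not tested.

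**Figure D4:**
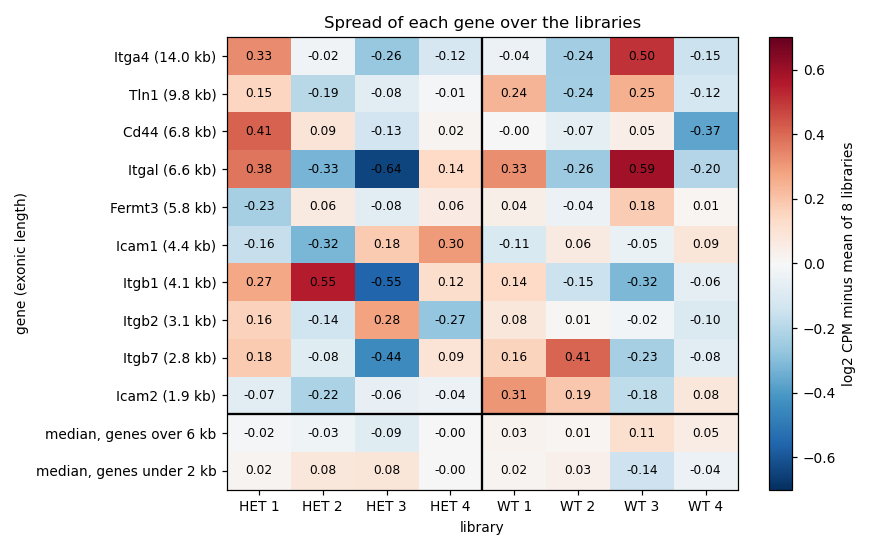
Log2 CPM of each gene minus its mean over the 8 libraries, one column per library, with genes ordered from the longest to the shortest exonic length and, in the last 2 rows, the median deviation of all genes over 6 kb and under 2 kb. Itgal and Itga4 are highest in WT 3 (0.59 and 0.50) and lowest in HET 3 (-0.64 and -0.26), where the length medians also differ most. The shorter Itgb1 and Itgb7 are lowest in HET 3 too (-0.55 and -0.44), and the long Cd44 is near its mean in WT 3 (0.05).

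The wider adhesion machinery was described with 5 lists, holding 108 other genes in all, of which 100 were counted and 78 tested. None was called by edgeR after adjustment. At an unadjusted p under 0.05 there were 7 (8.97% of the 78, against 7.22% of all genes), 1 higher and 6 lower in HET, where 3.88% of all genes tested were lower by this measure. Groups did not overlap for 4 of the 78 (5.13%, against 4.61%). Of the 78 genes, 57 were lower and 21 higher in HET (26.9% higher, against 49.9% of all genes). The median log2 fold change was -0.10, against -0.00 over all genes. The 8 B cell markers were also each lower in HET, with sums of 9921 to 11223 CPM in HET and 11675 to 12550 CPM in WT. By edgeR, 6 of these 8 had an unadjusted p under 0.05 and none passed after adjustment, and 4 had no overlap between the groups. T cell markers moved the other way, 10 of the 11 tested being higher in HET with a median log2 fold change of 0.55, though none had an unadjusted p under 0.05 by edgeR. The part of B and T cell content in the values of the members and of the other adhesion genes was not tested. By library, the median log2 deviation of genes over 6 kb was between -0.09 and -0.002 in HET and between 0.01 and 0.11 in WT. For genes under 2 kb it was between -0.002 and 0.08 in HET and between -0.14 and 0.03 in WT. The part of exonic length in the directions of the other adhesion genes was not tested.

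Of the genes linking adhesion receptors to actin, 23 were tested, 21 lower and 2 higher (8.70% higher, against 49.9% of all genes). Their median log2 fold change was -0.11. At an unadjusted p under 0.05 by edgeR there were 2 (8.70%, against 7.22% of all genes). Groups did not overlap for 2 (8.70%, against 4.61%). Msn, which encodes moesin, a linker between membrane proteins such as CD44 and the actin cortex, had 573, 646, 598 and 611 CPM in HET and 769.6, 649, 791 and 805 CPM in WT. Every HET library was below every WT library, though HET 2 and WT 2 nearly met. The log2 fold change of Msn was -0.31 (SE 0.08, edgeR unadjusted p = 0.00228, adjusted p = 0.344), and DESeq2 gave an adjusted p of 0.0418 at the same fold change. Nedd9, a scaffold that acts downstream of integrins and was named after its value was seen, had a log2 fold change of -0.45 with overlapping groups (edgeR unadjusted p = 0.00536). Ilk, a kinase-like adaptor at integrin tails, was the gene of this list with the highest deposited TPM and had no overlap, with a log2 fold change of 0.15 (edgeR unadjusted p = 0.190).

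The tetraspanins, membrane organizers that associate with integrins, were all 12 tested, 9 lower and 3 higher (25% higher, against 49.9% of all genes). Their median log2 fold change was -0.13. At an unadjusted p under 0.05 by edgeR there were 3 (25%, against 7.22% of all genes). Groups did not overlap for 1 (8.33%, against 4.61%). Cd53 had 728, 900.4, 845 and 768 CPM in HET and 924, 968, 933 and 1065 CPM in WT, without overlap, and a log2 fold change of -0.26 (SE 0.08, edgeR unadjusted p = 0.00673, adjusted p = 0.506). Cd37, a leukocyte tetraspanin, had 1319, 1418, 1268 and 1176 CPM in HET and 1501, 1449, 1589 and 1389 CPM in WT, with a log2 fold change of -0.19 (SE 0.07, edgeR unadjusted p = 0.018, adjusted p = 0.600). Cd82 went the other way, with 130, 64.8, 112 and 108 CPM in HET and 75.2, 76.4, 66.3 and 66.1 CPM in WT. HET 2 was its lowest library and the other 3 HET libraries its highest, and the log2 fold change was 0.55 (SE 0.18, edgeR unadjusted p = 0.010, adjusted p = 0.559).

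Of the other adhesion ligands and receptors, 11 were tested, 7 lower and 4 higher. Their median log2 fold change was -0.14. Spp1, which encodes osteopontin and was named after its value was seen, had 0, 1.17, 2.10 and 0.910 CPM in HET and 4.66, 2.24, 16.03 and 1.57 CPM in WT, with 0 to 127 counts per library. The groups overlapped and WT 3 stood far above the rest, and the log2 fold change was -2.57 (edgeR unadjusted p = 0.0222), but -1.44 without WT 3 (edgeR unadjusted p = 0.209). Hmmr, a hyaluronan-binding protein of dividing cells, had the lowest p among those that were higher, with a log2 fold change of 0.69 (edgeR unadjusted p = 0.372).

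Of the genes that act in integrin activation, 24 were tested, 16 lower and 8 higher. Their median log2 fold change was -0.05, with none at an unadjusted p under 0.05 by edgeR. Apbb1ip, which encodes RIAM, the adaptor that brings talin to integrins, had 37.5, 47.7, 45.4 and 40.2 CPM in HET and 59.0, 58.5, 57.5 and 43.2 CPM in WT, with a log2 fold change of -0.35 (SE 0.17, edgeR unadjusted p = 0.060, adjusted p = 0.706). Only WT 4 lay within the HET range. Fyb, an adaptor of the same pathway, had a log2 fold change of 0.61 (edgeR unadjusted p = 0.130), and Coro1a, a regulator of actin filaments in leukocytes and the gene of this list with the highest deposited TPM, one of -0.05 (edgeR unadjusted p = 0.521). The relatives of the member genes were nearly absent, since Fermt1, Fermt2 and Tln2 had 12, 1 and 7 counts over all 8 libraries together, against 22142 for Fermt3 and 14862 for Tln1.

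Of the other integrin chains, 8 of 17 counted were tested, 4 higher and 4 lower. Their median log2 fold change was 0.05, with none at an unadjusted p under 0.05 by edgeR. Itga2 had values of 0.3 to 3.65 CPM over the 8 libraries, close to the floor, with no overlap and a log2 fold change of -1.64 (edgeR unadjusted p = 0.062). Itga6, a laminin receptor chain, had a log2 fold change of 0.75 (edgeR unadjusted p = 0.188). Itgax (CD11c), which pairs with the Itgb2 chain and is a marker of dendritic cells and some activated B cells, ranged from 0 to 25.4 CPM, with a log2 fold change of 0.62 (edgeR unadjusted p = 0.663).

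**Figure D5:**
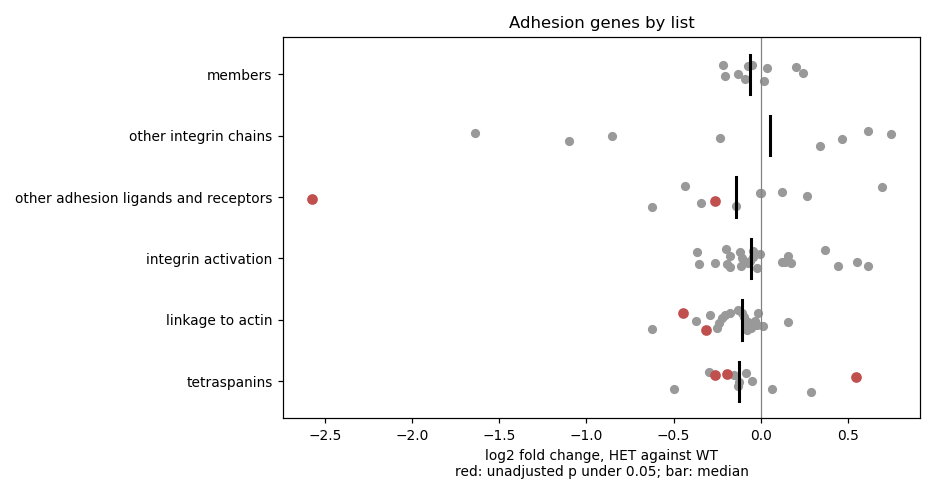
Log2 fold change of each tested gene, HET against WT, by list, with the median of each list as a black bar and genes at an unadjusted p under 0.05 in red. The 10 members lie between -0.22 and 0.24 with none in red, and the other lists hold 7 red points, 6 of them lower in HET.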

How the data were processed

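RNA was sequenced in 4 HET and 4 WT libraries. The authors prepared them with an adapted SMART-Seq2 protocol, aligned reads to GRCm38 with Hisat2 2.2.1 and counted them with HTSeq-count. The annotation, strand setting and treatment of multiply aligned reads were not given in the sources used here. Without molecular identifiers, the floor of 3 counts covers counting error only.

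The deposited counts are whole reads per gene symbol. The deposited TPM are the same counts divided by 1 length per gene and rescaled. All columns were matched to samples by name. The groups were compared in edgeR 4.0.16 under R 4.3.3 (filterByExpr, TMM, robust quasi-likelihood test, group alone), with Benjamini-Hochberg adjustment over 12744 genes and a threshold of 0.05. CPM were TMM-scaled. The study used DESeq2, which was an alternative here (1.42.0), as was limma 3.58.1. The scripts were tested on simulated data. Exonic lengths, over all annotated exons of a gene, and positions came from GENCODE M21, which held 23530 of the 24259 symbols. The promoter came from RefSeq.

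The members and lists were chosen with earlier results of these data known. Named were all members and, of each other list, genes past the threshold, the tested gene with the lowest p in each direction and that with the highest mean TPM. Other names were chosen after their values were seen. Values of 1 gene that the rule named are not reported here. Of the marker lists, genes with the highest CPM and any at 0 in every library were to be named. Alternatives were RLE size factors, other filters, limma-trend on log2(TPM + 1) and log2(TPM + 0.1), limma-voom with quality weights, the replicate number as a block, leaving out libraries, and, added after seeing the data, a length offset.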

Additional observations from a re-analysis of the deposited data

Results flagged for a closer look

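No member had a library far from the others of its group by Dixon's test at the 95% level, which was applied to 66 groups of 4 values for the members, the named genes and the marker sums. It marked 4 values, and chance alone marks about 5% of groups. The summed myeloid markers were 433 CPM in WT 2, of which Lyz2 made up 399, against 17.4 to 76.0 in the other WT libraries. The summed markers of antibody-secreting cells were 1976 CPM in HET 1, led by Jchain at 1576, against 223 to 470 in the other HET libraries. HET 1 was also the highest HET library for Itgal, Itga4, Itgb7, Cd44 and Tln1, and the part of this in their values was not tested. Apbb1ip had 43.2 CPM in WT 4, against 57.5 to 59.0 in the other WT libraries. Itga2 had 3.65 CPM in WT 4, against 1.24 to 1.63 in the others.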

How the results depend on the processing

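In none of the 19 alternatives was a member called, and the lowest adjusted p of any member was 0.527 (Icam2). With all libraries, the unadjusted p of Icam2 was 0.0355 by edgeR with the length offset. By limma-trend it was 0.0491 on log2(TPM + 0.1), 0.0314 on log2(TPM + 1) without a filter and 0.0540 with one. In the remaining alternatives with all libraries it was above 0.05. Of 190 alternative fold changes of members, 171 kept their direction and 19 reversed. Itgb2 reversed with limma-trend on the log2(TPM + 1) scale, filtered or not (-0.0286), on log2(TPM + 0.1) (-0.0315) and without HET 1 and WT 4 (-0.04), and Icam1 on the same limma scales (-0.0458, and -0.0472 with 0.1) and with limma-voom (-0.00388). The length offset turned Itga4 (0.0698) and Tln1 (0.0115). Leaving out 1 library, or HET 1 and WT 4 together, gave ranges of -0.0591 to 0.12 for Itgb2 and -0.0813 to 0.12 for Icam1. They were -0.24 to 0.15 for Itga4, -0.26 to 0.000599 for Itgb7 and -0.19 to 0.0053 for Tln1. For Coro1a the range was -0.0955 to 0.00227 and for Itgax -0.24 to 1.49. Itgax turned only where HET 1 was left out, alone or together with WT 4. The causes were not tested. Itgal ranged from -0.50 without HET 1 and WT 4 to -0.03 without WT 3. The difference in the log2 ratio of Itgb7 to Itgb1 ranged from -0.42 to -0.17. It reached -0.42 without HET 3, the HET library with the highest ratio, with an exact permutation p of 0.0286. That p is the smallest the test can give with 1 library left out, and it was not adjusted over the 3 ratios. The count of genes called, 3 in all, was 77 with DESeq2, 38 without a filter, 7 with a mean of at least 50 counts, 0 with limma-trend on each of the 3 TPM settings (935 to 1297 at an unadjusted p under 0.05) and 0 with the replicate block (912 at an unadjusted p under 0.05), and ranged from 1 (without HET 1, HET 2, HET 3, HET 4 or WT 3) to 6 (without WT 1) when 1 library was left out. The replicate numbers did not pair the libraries (correlations of same-numbered libraries between -0.05 and 0.01), not every library correlated best with its own number, and the replicate block changed no call of a member or another adhesion gene. Of the other adhesion genes, 1 was called with DESeq2 (Msn, adjusted p = 0.0418) and 0 otherwise. Itgax was -0.0415 without HET 1 and WT 4.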
